A study of Mus musculus with 6 samples.

Results

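The genes described here are those of non-homologous end joining, 8 listed genes of which 7 were measured, among 18193 genes with a single annotated symbol on the array. They are Xrcc6, Xrcc5, Prkdc, Xrcc4, Nhej1, Lig4 and Polq, and every probe set whose only annotated symbol was one of these was kept, 10 probe sets in all. Expression of Dclre1c, which encodes the nuclease Artemis, is not analysed here, and only its promoter window was searched. They were measured in V720 cells, a line of mouse breast cancer labelled as mammary epithelium, after 24 h with 1 µM PD0332991 (3 samples) or with vehicle (3 samples). Each sample was hybridized to its own Affymetrix array. PD0332991 (palbociclib) inhibits the cyclin D-dependent kinases CDK4 and CDK6 and is used to hold cells in G1. The series' design text calls the samples biological triplicates of 1 cell line, so the p-values measure the spread between these samples.

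Non-homologous end joining seals double-strand breaks without a template. The Ku ring, made of Ku70 and Ku80, threads onto a broken end and recruits the kinase DNA-PKcs. Artemis trims ends that cannot be joined directly, and XRCC4, XLF and DNA ligase IV align and seal them. This route works throughout interphase and carries most break repair in G1, when no sister chromatid is at hand for homologous recombination. Polymerase theta acts in a separate joining route that uses short stretches of microhomology and is known chiefly from S phase and mitosis.

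The arrays were at a like level, with median probe-set intensities of 69.6 to 71.1 on the PD0332991 arrays and 71.3 to 72.7 on the vehicle arrays. Correlations across genes were 0.9969 to 0.9973 between arrays of the same group and 0.9919 to 0.9927 between groups. The 3′ to 5′ signal ratio of beta-actin was 1.34 to 1.39 with PD0332991 and 1.31 to 1.40 with vehicle, and that of Gapdh was 0.98, 1.00 and 1.01 with PD0332991, against 0.929, 0.99 and 0.927 with vehicle. The Gapdh groups overlapped only through vehicle replicate 2. Hybridization spike-ins averaged 10.00 to 10.05 (log2) on the PD0332991 arrays and 9.94 and 10.03 on 2 vehicle arrays, but 9.74 on vehicle replicate 1. Of 8 mammary epithelium markers 7 lay above the median gene level, and Krt19 did not. Above that level were 0 of 7 fibroblast, 1 of 9 leukocyte, 0 of 5 endothelium and 0 of 4 adipocyte markers. The summed intensity of the epithelium markers was 55810 to 57470 with PD0332991 and 52690 to 54090 with vehicle, with Krt7 and Cldn4 of the 8 called higher. That of the leukocyte markers was 508 to 535 with PD0332991 and 408 to 462 with vehicle, with Cd68 and Ptprc of the 9 called higher. The fibroblast markers summed to 294 to 326 with PD0332991 and 329 to 384 with vehicle, with Pdgfra alone called, lower. The sums of the other 2 marker lists overlapped between groups, with Emcn of the endothelium list called lower and no adipocyte marker called. With spike-in centring Krt7, Cd68 and Ptprc were no longer called (limma adjusted p = 0.730, 0.163 and 0.348). The part of these ratios and markers in the results below was not tested. The proliferation gene Mki67 had intensities of 955, 1063 and 1093 with PD0332991, against 4099, 4319 and 4171 with vehicle (log2 fold change -2.00, SE 0.06, limma adjusted p = 4.50e-05).

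After PD0332991, 1 of the 7 measured end joining genes fell, Xrcc6, which encodes Ku70, and none rose. The other 6 had log2 fold changes of 0.01 to 0.15, and their groups overlapped on the arrays. Across all 18193 genes limma called 21.0%, with 11.2% lower and 9.81% higher, so that 1 of 7 lies near the background. The split between directions moved with the scaling: 2138 genes were higher and 1618 lower with centring on the array median, and 240 higher and 1475 lower with spike-in centring, against 1785 higher and 2035 lower as scaled here. The median log2 fold change was 0.03 over the 7 genes and 0.00 over all genes. Intensities were taken as log2(intensity + 16), which understates the change of dim genes, and a gene was called at a Benjamini-Hochberg adjusted p under 0.05 over all genes. In these samples fewer cells expressing a transcript and less transcript per cell cannot be told apart.

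**Figure D1:**
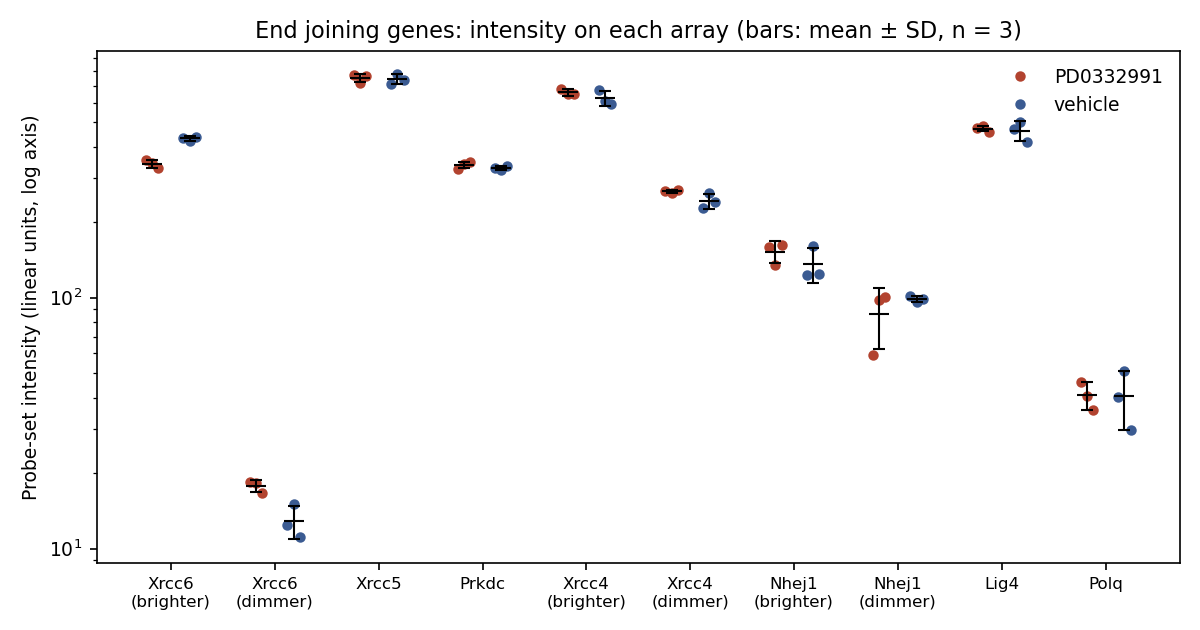
Linear probe-set intensity (log axis) of the 10 probe sets of the 7 measured end joining genes, with 1 point per array and bars for the mean ± SD (n = 3), PD0332991 left of vehicle. On the brighter Xrcc6 probe set the 3 PD0332991 arrays, at 329 to 353, lie below the 3 vehicle arrays, at 422 to 437, and Xrcc5, Prkdc, Lig4 and Polq overlap between groups.

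Ku70 and Ku80 work as an obligate pair, and of their transcripts that of Ku70 was called lower and that of Ku80 was not called. Xrcc6 (Ku70, chromosome 15) had intensities of 353, 344 and 329 in PD0332991 samples, against 435, 422 and 437 in vehicle samples. All 3 PD0332991 arrays were below all 3 vehicle arrays, and groups failed to overlap in this direction in 19.6% of all genes, or 38.9% in either direction. The means were 341.9 ± 11.9 with PD0332991 and 431.5 ± 8.10 with vehicle (SD, n = 3 each), a level 1.25-fold lower (log2 fold change -0.32, SE 0.04, 95% interval -0.42 to -0.22, limma adjusted p = 0.00411). Xrcc5 (Ku80, chromosome 1) had intensities of 772, 721 and 763 in PD0332991 samples, against 715, 779 and 740 in vehicle samples. Its groups overlapped, and the ratio of 1.01 had a 95% interval of 0.928 to 1.10 (limma adjusted p = 0.876). That interval does not reach the Xrcc6 ratio of 0.799, although the difference between the genes was not itself tested.

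Xrcc6 was also measured by a second, much dimmer probe set, which did not follow the first. That probe set read 18.3, 18.3 and 16.6 in PD0332991 samples, against 12.4, 15.0 and 11.1 in vehicle samples. Here the PD0332991 arrays were the higher ones, with a log2 fold change of 0.23 (SE 0.06) that limma did not call among all 45037 probe sets (adjusted p = 0.0692). Among the alternative analyses this probe set passed 0.05 only without vehicle replicate 2 (limma adjusted p = 0.0488). In the other alternatives it entered, its adjusted p by limma was 0.0595 to 0.641. Its log2 fold change ran from 0.09 with a pseudocount of 64 to 0.44 with a pseudocount of 1. Among all probe sets 14.2% were called, 8.19% lower, and of the 10 end joining probe sets only the brighter one of Xrcc6 was (log2 fold change -0.32, limma adjusted p = 0.00868). Averaging both Xrcc6 probe sets gave a log2 fold change of -0.05 for the gene (limma adjusted p = 0.521), so the call rests on the brighter probe set.

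The promoters of the Ku pair are shown because Xrcc6 was the only member called and its window held the only exact E2F motif among the windows searched, which cover every listed gene except Prkdc. E2F factors are released when CDK4 and CDK6 phosphorylate the retinoblastoma protein, and they drive many S phase genes. The windows run from 250 bases before to 50 bases after the annotated start (RefSeq, GRCm38.p6), and capitals mark matches on either strand to the E2F motifs TTTCCCGC, TTTCGCGC, TTTGCCGC and TTTGGCGC, to the CHR motif TTTGAA or to the CCAAT box. Xrcc6 lies at chr15:82016119-82016418 on the plus strand and Xrcc5 at chr1:72307171-72307470 on the plus strand.
Xrcc6: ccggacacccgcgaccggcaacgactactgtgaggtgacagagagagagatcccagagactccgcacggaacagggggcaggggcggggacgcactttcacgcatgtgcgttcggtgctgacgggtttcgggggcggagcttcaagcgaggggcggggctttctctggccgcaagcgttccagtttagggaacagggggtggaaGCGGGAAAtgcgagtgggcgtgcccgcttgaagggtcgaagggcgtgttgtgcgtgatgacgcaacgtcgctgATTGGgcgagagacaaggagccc
Xrcc5: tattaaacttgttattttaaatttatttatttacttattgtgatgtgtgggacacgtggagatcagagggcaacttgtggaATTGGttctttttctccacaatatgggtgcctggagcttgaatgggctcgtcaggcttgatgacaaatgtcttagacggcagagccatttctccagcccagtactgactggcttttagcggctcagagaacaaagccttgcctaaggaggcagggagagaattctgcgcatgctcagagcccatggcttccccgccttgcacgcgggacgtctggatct
In the Xrcc6 window the match to TTTCCCGC is read on the opposite strand and begins at position -46 from the start, and a CCAAT match begins at 27. The Xrcc5 window holds 1 CCAAT match, beginning at -169, and neither other motif. Of all 32851 promoter windows 2.26% held an E2F motif, 17.9% a CHR motif and 37.4% a CCAAT box. Of the 8 windows of the 7 listed genes in the promoter table, Dclre1c included, 1 held an E2F motif, 1 a CHR motif and 3 a CCAAT box. A match is a string of letters and does not show that a factor binds there. Whether any of these motifs has a part in the level of Xrcc6 or another member was not tested.

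The catalytic kinase of the complex was not called. Prkdc, which encodes DNA-PKcs (chromosome 16), had intensities of 327, 342 and 346 in PD0332991 samples, against 330, 324 and 335 in vehicle samples. The groups overlapped, with means of 338.2 ± 10.2 with PD0332991 and 329.6 ± 5.57 with vehicle (SD, n = 3 each). The ratio was 1.02 with a 95% interval of 0.960 to 1.09 (limma adjusted p = 0.588), so a fall as large as that of Xrcc6 lies outside the interval.

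The 3 genes of the ligation step gave slightly higher means with PD0332991, none of which passed the test. Xrcc4 (chromosome 13), the scaffold that holds ligase IV, had intensities of 681, 647 and 649 in PD0332991 samples, against 671, 608 and 590 in vehicle samples on its brighter probe set. The ratio was 1.06 with a 95% interval of 0.957 to 1.17 (limma adjusted p = 0.408). On the dimmer Xrcc4 probe set the values were 267, 261 and 268 in PD0332991 samples, against 228, 261 and 241 in vehicle samples. Those groups did not overlap, as in 34.1% of all probe sets in either direction, and the log2 fold change of 0.12 (SE 0.06) was not called (limma adjusted p = 0.247).

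Lig4 (chromosome 8), the ligase that seals the break, had intensities of 473, 482 and 460 in PD0332991 samples, against 472, 500 and 418 in vehicle samples. The vehicle arrays spanned the PD0332991 arrays on both sides, with a ratio of 1.02 and a 95% interval of 0.905 to 1.15 (limma adjusted p = 0.825). Nhej1 (chromosome 1) encodes XLF, which bridges the ends together with XRCC4. It had intensities of 160, 135 and 162 in PD0332991 samples, against 123, 161 and 124 in vehicle samples, so that 1 vehicle array lay among the PD0332991 values. Its ratio of 1.11 had a wide 95% interval of 0.905 to 1.36 (limma adjusted p = 0.449). The other Nhej1 probe set pointed the other way, with 58.8, 97.7 and 101 in PD0332991 samples, against 102, 95.9 and 98.7 in vehicle samples. PD0332991 replicate 1 alone lay far below there, and the log2 fold change of -0.20 (SE 0.18) was not called (limma adjusted p = 0.538).

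Polymerase theta was represented by a single dim probe set. Polq (chromosome 16) had intensities of 46.2, 40.7 and 35.7 in PD0332991 samples, against 40.3, 51.2 and 29.7 in vehicle samples. The vehicle arrays held both the highest and the lowest value. The ratio was 1.02 with a 95% interval of 0.785 to 1.32 (limma adjusted p = 0.929), the widest of the 7 genes, and a change inside it could not be seen here. Both Polq and Nhej1 lay below the median gene level. The Polq promoter is shown because, among the windows searched, which leave out Prkdc, it alone held a CHR motif, the element through which many G2 and mitosis genes are repressed outside those phases. It lies at chr16:37011536-37011835 on the plus strand (RefSeq, GRCm38.p6), with CHR matches in capitals.
Polq: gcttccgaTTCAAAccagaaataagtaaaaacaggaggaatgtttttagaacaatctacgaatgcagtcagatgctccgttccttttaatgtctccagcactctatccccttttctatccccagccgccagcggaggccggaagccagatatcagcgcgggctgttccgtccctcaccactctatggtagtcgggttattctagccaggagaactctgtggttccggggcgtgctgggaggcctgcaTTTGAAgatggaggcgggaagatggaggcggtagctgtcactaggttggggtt
The matches begin at positions -242, on the opposite strand, and -3. A CHR motif was held by 17.9% of all promoter windows, and any part of it in the level of Polq was not tested.

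The 4 lists of partner genes were set beside the core, and each was described by its counts. Across all genes limma called 11.2% lower and 9.81% higher. Accessory factors of end joining numbered 11 measured of 13 listed, with 1 higher, 3 lower and a median log2 fold change of -0.07. Parp3, an ADP-ribosyltransferase that promotes end joining, rose to 292, 315 and 290 in PD0332991 samples, against 179, 187 and 169 in vehicle samples. This is a level 1.62-fold higher (log2 fold change 0.70, SE 0.05, limma adjusted p = 7.57e-04), and each of its 3 probe sets passed the test upward, although all are of a type whose probes can match several transcripts. Tdp1, which removes trapped topoisomerase I from DNA ends, fell to 90.4 ± 9.77 with PD0332991, against 137.1 ± 8.38 with vehicle (SD, n = 3 each, limma adjusted p = 0.00798). Tdp2, which removes topoisomerase II, fell by 0.26 on the log2 scale (limma adjusted p = 0.0142), a call lost without PD0332991 replicate 2 (adjusted p = 0.0505). The remaining fall was that of the helicase gene Wrn, 1.25-fold (limma adjusted p = 0.0149), named after its value was seen. Its adjusted p was 0.0544 without PD0332991 replicate 1 and 0.0554 without vehicle replicate 3. The other probe sets of Wrn, at log2 fold changes of -0.23 and -0.24, were not called (limma adjusted p = 0.437 and 0.0553). Aplf, also named after its value was seen, was not called as a gene (log2 fold change -0.13, limma adjusted p = 0.381). The dimmer probe set of Aplf was called lower, at 98.5 with PD0332991 and 151.7 with vehicle on average (log2 fold change -0.55, limma adjusted p = 0.0021).

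Partners of the polymerase theta route fell although Polq itself was not called. All 8 measured genes of 9 listed were called lower, against 11.2% of all genes, with log2 fold changes of -1.47 to -0.21 and a median of -0.48. Several of them also act in DNA replication, base excision repair or end resection. Lig1, the replicative ligase, had intensities of 514, 545 and 542 in PD0332991 samples, against 1490, 1541 and 1491 in vehicle samples, 2.77-fold lower (log2 fold change -1.47, SE 0.04, limma adjusted p = 4.50e-05). Mre11a, the nuclease subunit of the complex that opens resection, was 1.70-fold lower on its brighter probe set (limma adjusted p = 1.17e-04). The other probe set of Mre11a read 181.6 with PD0332991 and 178.9 with vehicle on average, with a log2 fold change of 0.02. Lig3, named after its value was seen, fell by 0.21 on the log2 scale, and its adjusted p by limma was 0.0573 without PD0332991 replicate 1 and 0.0541 without PD0332991 replicate 2.

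In the list of break signalling and end protection, 6 of 13 measured genes fell and none rose, with a median log2 fold change of -0.23. Of all genes 11.2% were called lower. H2ax, the histone variant phosphorylated around breaks, had intensities of 519, 595 and 612 in PD0332991 samples, against 1595, 1628 and 1616 in vehicle samples (2.76-fold lower, log2 fold change -1.47, SE 0.07, limma adjusted p = 9.23e-05). Rif1, an effector of 53BP1 that shields ends from resection, was 1.58-fold lower (limma adjusted p = 3.35e-04), and each of its 4 probe sets passed the test downward. Trp53bp1, which encodes 53BP1, averaged 2042 ± 26.8 with PD0332991 and 2124 ± 31.7 with vehicle (SD, n = 3 each, limma adjusted p = 0.312).

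Homologous recombination genes had the lowest median of the 4 lists, with 13 of 16 measured genes lower, none higher and a median log2 fold change of -1.03. Over all genes limma called 11.2% lower and 9.81% higher. Dna2, a nuclease and helicase of long-range resection, had intensities of 223, 237 and 229 in PD0332991 samples, against 725, 754 and 700 in vehicle samples (3.02-fold lower, log2 fold change -1.59, SE 0.04, limma adjusted p = 4.50e-05). Exo1, the other long-range resection nuclease, was 2.87-fold lower, and all 3 probe sets of each gene were called lower. The genes not called were Xrcc3 (log2 fold change -0.26, limma adjusted p = 0.0586), Rad51d (0.10, adjusted p = 0.289) and Rad52 (0.16, adjusted p = 0.162). Bard1, a dim gene, lost its call without any 1 of 5 of the 6 arrays (adjusted p 0.0538 to 0.0949). Among genes whose windows were searched, 3 of 13 of homologous recombination and 1 of 12 of break signalling held an E2F motif. So did 1 of 6 polymerase theta partners and 0 of 9 accessory factors, against 704 of 27025 genes over all windows.

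**Figure D2:**
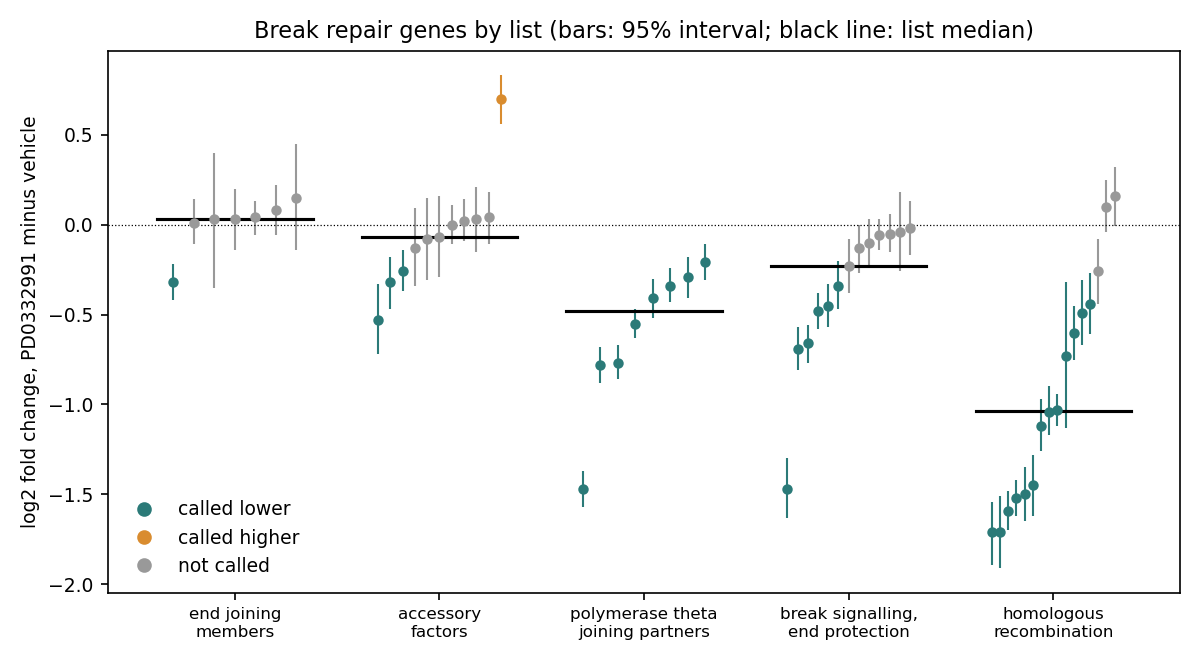
Log2 fold change (PD0332991 minus vehicle) of each measured gene, by list, with 95% intervals from limma and a black line at each list's median. The end joining members sit around 0.03 with Xrcc6 alone below, the polymerase theta partners around -0.48, and the homologous recombination genes around -1.03.

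On each array, the mean level of the 7 end joining genes was 8.34, 8.27 and 8.28 with PD0332991, against 8.29, 8.38 and 8.21 with vehicle (mean log2(intensity + 16) over the list). The groups overlapped. The mean of the homologous recombination genes was 7.28, 7.26 and 7.24 with PD0332991, against 8.18, 8.21 and 8.20 with vehicle, with no overlap. These means describe the lists, and no test was made between lists.

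**Figure D3:**
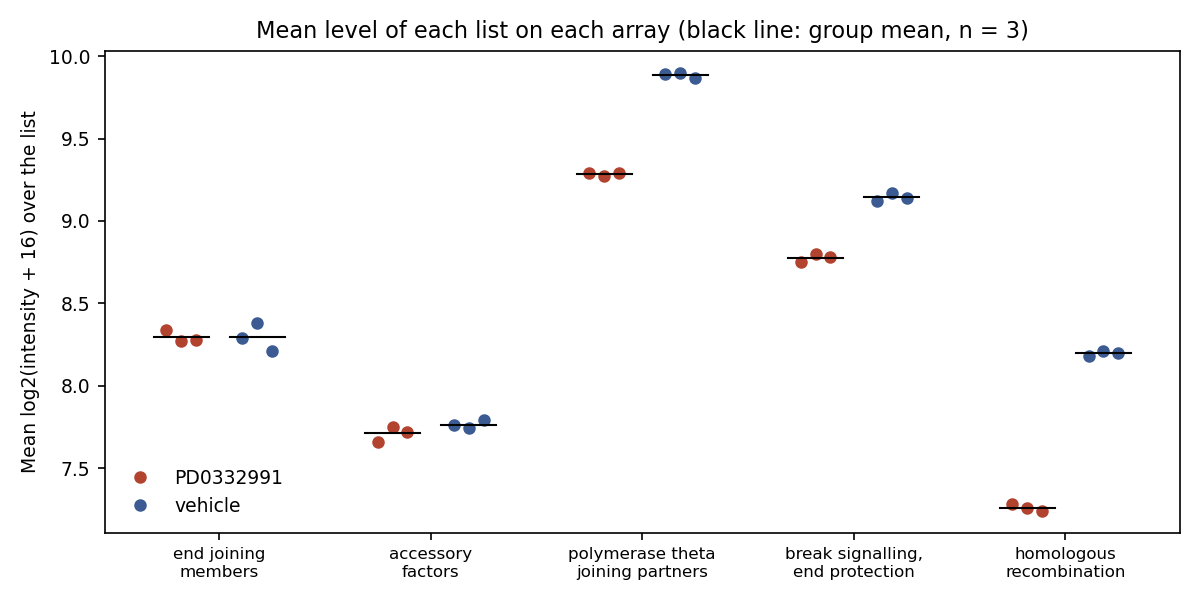
Mean log2(intensity + 16) of each list on each array, with black lines at the group means (n = 3) and PD0332991 left of vehicle. The end joining means overlap between groups at 8.21 to 8.38, whereas those of the homologous recombination genes lie at 7.24 to 7.28 with PD0332991 and 8.18 to 8.21 with vehicle.

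The members were also compared by their pattern over the 6 arrays. For each, the most alike gene above the median level was found by Pearson's r of the log2 values over the 6 arrays, which fall into 2 groups, so r is a description. For Xrcc6 it was Blvra, biliverdin reductase, with r = 0.999 and a log2 fold change of -0.17. Xrcc6 separates the groups, and 891 of the named genes above the median level had r over 0.95 with it, against 3 to 19 for the other members. The nearest were Pgf for Xrcc5 (r = 0.989), Zfp579 for Prkdc (r = 0.990), Nek6 for Xrcc4 (r = 0.963), Vapa for Nhej1 (r = 0.984), Dnajc14 for Lig4 (r = 0.981) and Trnt1 for Polq (r = 0.983). None of these 6 genes was called between PD0332991 and vehicle (limma adjusted p 0.329 to 0.969).

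The call of Xrcc6 held in 17 of 18 alternative analyses of the genes at the 0.05 threshold, with log2 fold changes of -0.45 to -0.28, and was lost in the average of its probe sets. The remaining 6 genes were called in none of the 17 or 18 alternatives each could enter. Their log2 fold changes were -0.12 to 0.27 over these alternatives, with negative values in some for each gene.

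**Figure D4:**
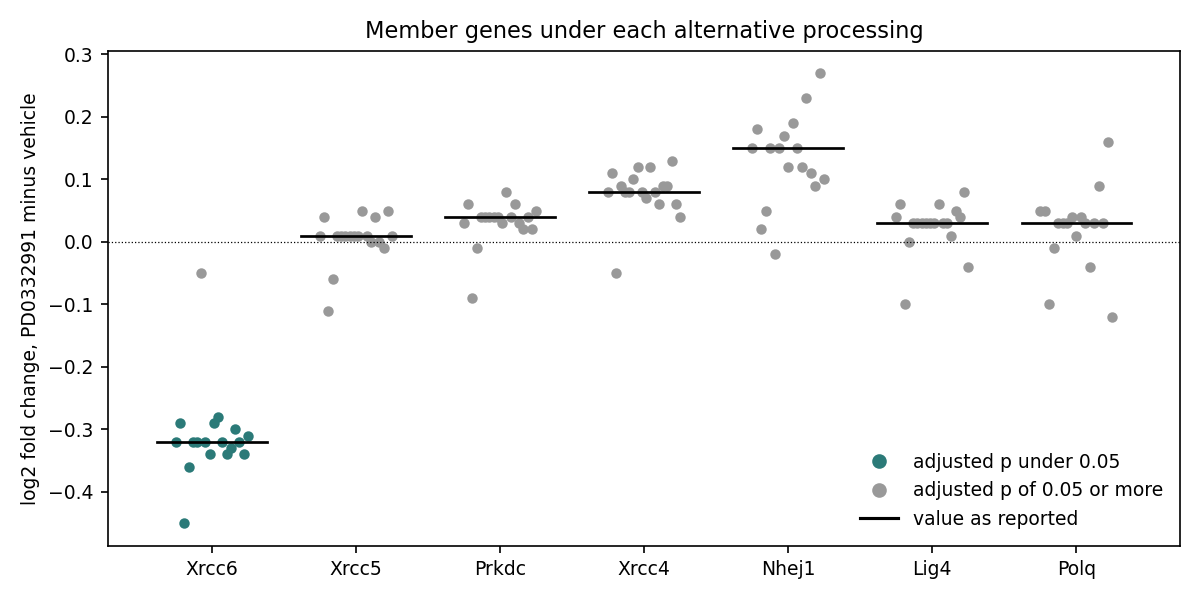
Log2 fold change (PD0332991 minus vehicle) of the 7 member genes under each alternative analysis, 1 point per alternative, with a black line at the reported value. Xrcc6 stays between -0.45 and -0.28 except for the average of its probe sets at -0.05, and the other genes scatter between -0.12 and 0.27 without a call.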

How the data were processed

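Biotin-labelled total RNA was hybridized to Affymetrix mouse arrays, per the labels' protocols. The deposited table holds 1 linear probe-set intensity per array, and how the authors summarised and scaled it is not given in the sources used here. Without 64 controls there were 45037 probe sets, of which GEO's platform annotation names a single gene for 34945, several for 932 and none for 9160. Symbols and chromosomes came from a RefSeq table (GRCm38.p6) through gene numbers, and 18032 of 18193 genes matched. A gene was represented by its probe set with the highest mean log2 value. Values were log2(intensity + 16), compared by limma's moderated linear model (lmFit, eBayes, limma 3.58.1, R 4.3.3) in a two-sided test and adjusted by Benjamini-Hochberg over all genes, or over all probe sets. On simulated data the procedure called 14% of genes changed by 0.25 on the log2 scale, 48% at 0.5 and 86% at 1.0. The simulation changed 50 of 18193 genes at each size, fewer than were called here, so these shares need not hold for these data. No detection calls were used, and the number of arrays limits the precision. Motifs were matched exactly on both strands.

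The named genes were all members, up to 2 called genes in each direction per list, the most alike gene of each member, and Mki67, Cdk4 and Cdk6. Krt7, Krt19, Cldn4, Cd68, Ptprc, Pdgfra, Emcn, Trp53bp1, Xrcc3, Rad51d, Rad52, Bard1, Aplf, Wrn, Lig3, Rad50 and the neighbouring genes were named after their values were seen. Members and lists were chosen with earlier results of these data known. The kinase genes gave log2 fold changes of -0.17 (Cdk4, limma adjusted p = 0.0305) and 0.36 (Cdk6, limma adjusted p = 0.00255), the first of which is lost without any 1 array.

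The alternatives were quantile normalization, centring on the array median or on the 9 spike-in probe sets, pseudocounts of 1 and 64, leaving out dim genes or probe sets that can match several transcripts, averaging probe sets, a replicate block, trend and robust settings, array weights, leaving out each array and a threshold of 0.01.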

Additional observations from a re-analysis of the deposited data

How the results depend on the processing

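The count of end joining genes called lower stayed at 1 and that called higher at 0 under every alternative, except that averaging probe sets gave 0 lower. Of the end joining probe sets 1 was called lower, but 0 with spike-in centring without vehicle replicate 1 (adjusted p = 0.0616) and 0 with the replicate block (adjusted p = 0.0579). Leaving out each array in turn gave 1 lower throughout and 0 to 1 higher, 1 occurring without vehicle replicate 2. The accessory list had 3 lower genes, but 0 with the replicate block and 1 at a threshold of 0.01. Without probe sets that can match several transcripts it had 0 higher, since Parp3 drops out. The polymerase theta partners then had 5 of 6 lower, where Mre11a, left with its other probe set, was not called (log2 fold change 0.02, limma adjusted p = 0.923). With the replicate block 6 of these 8 partners were lower, and Rad50 and Lig3 were not called (limma adjusted p = 0.0542 and 0.0632). Averaging probe sets gave 7 lower, without Rad50 (limma adjusted p = 0.139). Leave-one-out ranges were 2 to 3 lower for accessory factors, 7 to 8 for polymerase theta partners, 6 to 6 for break signalling and 12 to 13 for homologous recombination. Same-numbered deviations correlated at -0.05, -0.12 and 0.16, and other-numbered ones at -0.19 to 0.21. With so few arrays these values cannot settle whether replicate numbers pair the samples. Over all genes, 1785 were higher and 2035 lower. The counts were 2138 higher and 1618 lower with centring on the array median, 2287 and 1786 with quantile normalization, 240 and 1475 with spike-in centring, 412 higher and 1159 lower with that and without vehicle replicate 1, 895 and 1152 with the replicate block, 708 and 995 at a threshold of 0.01, and 1096 to 1252 and 1326 to 1494 with 1 array left out. Spike-in centring moved the median of all genes to -0.12, that of the end joining genes to -0.10 and that of homologous recombination to -1.16. Apart from these constructions, the causes were not tested. Polq and Nhej1 leave the comparison when dim genes are left out.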

Other observations

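Genes next to the end joining genes in RefSeq gene order were looked up after the data were seen. Mcm4, a subunit of the replicative helicase and the neighbour of Prkdc, had intensities of 1897, 1814 and 1674 in PD0332991 samples, against 3320, 3351 and 3135 in vehicle samples (log2 fold change -0.86, SE 0.06, limma adjusted p = 4.61e-04). Both of its probe sets were called lower, while Prkdc itself was at 0.04. On the other side of Prkdc, Mzt2, a component of the gamma-tubulin ring complex, was at -0.26 on the log2 scale (limma adjusted p = 0.0263), a call lost without PD0332991 replicate 1 or 3 and without vehicle replicate 1 or 3 (adjusted p 0.0643 to 0.0849).

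Desi1, a deSUMOylating isopeptidase and the neighbour of Xrcc6, averaged 1011 ± 24.9 with PD0332991 and 909.8 ± 16.2 with vehicle (SD, n = 3 each, log2 fold change 0.15, limma adjusted p = 0.0381), where Xrcc6 had -0.32. That call was lost without any 1 of the 6 arrays (adjusted p 0.08 to 0.103), and its other probe sets were at 0.03 and -0.12. Vcan, which encodes the matrix proteoglycan versican and neighbours Xrcc4, was called lower as a gene (log2 fold change -0.50, limma adjusted p = 0.00937). Among probe sets 1 of its 8 was called lower (limma adjusted p = 0.0141), and the other 7 were not called. Abhd13, next to Lig4, was not called (log2 fold change 0.11, limma adjusted p = 0.189), nor was Slc23a3, next to Nhej1 (0.18, limma adjusted p = 0.598).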
